A study of Mus musculus with 8 samples.

Results

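The 10 genes described here, which the transcription factor NF-kB is known to drive, were followed in rib chondrocytes of mouse embryos that carried a Hoxc8 transgene and of their control littermates. They are the cytokine genes Il6 and Lif, the chemokine genes Cxcl1, Cxcl2, Ccl2 and Ccl7, the prostaglandin synthase gene Ptgs2, and the feedback genes Nfkbia, Tnfaip3 and Zfp36. All probe sets that the platform annotation gives exactly 1 of these 10 symbols were taken, which gave 19 of the 45101 probe sets on the array. Of these 19, 14 probe sets of 7 genes reached a mean signal of 110 over the 8 arrays, the median of all probe sets, and were tested. The other 5, all probe sets of Lif, Ccl2 and Ccl7 and 1 of Tnfaip3, were dimmer than that and are described by their values alone.

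The transgenic group held 4 samples of FVB embryos at E18.5, late in gestation, labelled as Hoxc8 transgenic, and the control group 4 samples of FVB embryos of the same age labelled as wild type. Embryos came from 4 litters, numbered here by replicate, and those of a litter were grouped by genotype, so that each litter gave 1 sample of each genotype. Rib cages were digested with collagenase and trypsin, and the strained cells were stored in Trizol before total RNA was hybridised. The labels name neither the promoter of the transgene nor the number or sex of the embryos in a sample.

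Hoxc8 itself averaged 3885 ± 369 in transgenic and 3519 ± 501 in control samples (SD, n = 4 each; exact two-sided permutation p = 0.257, where 0.0286 is the smallest p that 4 against 4 samples allow). The transgenic sample was not the higher one in litter 1, with 4096 against 4112 in the control, and whether the probe set reads the transgene was not tested. All 14 chondrocyte markers, among them Cnmd, Col9a1 and Col2a1, passed the signal filter, and their mean signal lay between 25389 and 29754 in transgenic and between 24746 and 32659 in control samples. Precision is limited by having 8 arrays.

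NF-kB is held in the cytoplasm of resting cells by inhibitor proteins, of which the product of Nfkbia is the best known. Signals from interleukin-1, tumour necrosis factor or Toll-like receptors activate a kinase complex that marks the inhibitor for destruction, and the freed factor then switches on cytokine, chemokine and prostaglandin genes. The same factor drives its own brakes. Nfkbia restores the inhibitor, Tnfaip3 encodes a ubiquitin-editing enzyme that shuts off signalling upstream, and Zfp36 encodes a protein that binds AU-rich elements of cytokine messages and speeds their decay. Chondrocytes in culture are known to make interleukin-6, chemokines and prostaglandins when such signals reach them.

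The 250 bases upstream of each annotated start were searched on both strands for a form of the NF-kB site that reads GGG, any 2 bases and TTTCC. The motif was spelled after the promoters of the members had been read, so its presence is a description. Of the 8 members found in the RefSeq promoter table (build GRCm38.p6), 5 held it, against 1.65% of 27025 genes. Ccl2 and Ccl7 are named only. Il6 is shown at chr5:30013035-30013113 (plus strand), Cxcl1 at chr5:90891139-90891218 (plus strand), Cxcl2 at chr5:90903767-90903846 (plus strand), Nfkbia at chr12:55492648-55492711 (minus strand) and Tnfaip3 at chr10:19015411-19015457 (minus strand). Each sequence is read 5′ to 3′ along its gene, with the match in capitals and up to 35 bases on either side.
Il6: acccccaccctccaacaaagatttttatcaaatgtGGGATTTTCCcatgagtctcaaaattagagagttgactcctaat
Cxcl1: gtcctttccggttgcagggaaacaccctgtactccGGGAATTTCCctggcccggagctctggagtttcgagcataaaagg
Cxcl2: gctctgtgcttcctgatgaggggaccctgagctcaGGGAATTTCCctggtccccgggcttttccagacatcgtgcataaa
Nfkbia: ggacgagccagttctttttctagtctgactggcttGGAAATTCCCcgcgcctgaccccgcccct
Tnfaip3: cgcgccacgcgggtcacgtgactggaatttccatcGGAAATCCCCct

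Read in the direction of the motif, the Cxcl1, Cxcl2 and Nfkbia matches are the same 10 letters, GGGAATTTCC, on the gene's strand in the 2 chemokine genes and on the opposite strand in Nfkbia. The Il6 match is GGGATTTTCC, and the Tnfaip3 match reads GGGGATTTCC on the opposite strand. Cxcl1 held a second match, GGGTGTTTCC on the opposite strand, and Cxcl2 a second, GGGCTTTTCC. Ptgs2, Lif and Zfp36 had no such run of letters in this window. A looser form of GGG, any 5 bases and CC, which every match above also fits, was present in all 8 members and in 48.7% of genes.

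Il6, which encodes the cytokine interleukin-6, had signals of 257, 461, 253 and 263 in transgenic samples of litters 1, 2, 3 and 4, against 156, 371, 133 and 154 in controls of the same litters. Litter 2 was the highest in both genotypes, and in each of the 4 litters the transgenic sample was above its control littermate. The groups overlapped, because the control of litter 2 was above 3 of the 4 transgenic samples. The fitted difference of transgenic minus control, on the scale of log2(signal + 22.2), was 0.62 (SE 0.28, or 0.16 with litter as a block). Littermate ratios, transgenic over control, were 1.64, 1.24, 1.91 and 1.71 in litter order, so the ratio was smallest in the litter with the highest signals.

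Cxcl1, a chemokine gene whose product attracts neutrophils, had 3 probe sets. The brightest, 1419209_at, gave 1324, 1812, 1003 and 903 in transgenic samples of litters 1, 2, 3 and 4, against 826, 1796, 641 and 714 in controls. Litter 2 was again the highest in both genotypes, and there the littermates differed little, with a ratio of 1.01, against 1.60, 1.57 and 1.26 in litters 1, 3 and 4. The fitted difference was 0.41 log2 (SE 0.29, or 0.11 with litter as a block).

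The other probe sets of Cxcl1 gave the same sign. For 1457644_s_at the signals were 760.1, 1747, 652 and 685 in transgenic and 624, 1518, 431 and 411 in control samples, with a fitted difference of 0.44 log2 (SE 0.38). With litter as a block its SE was 0.11. It followed 1419209_at over the 8 arrays with r = 0.96. For 1441855_x_at they were 521, 804, 522 and 622 in transgenic and 539, 509, 383 and 359 in control samples, a difference of 0.44 log2 (SE 0.18). This last set had an SE of 0.14 with litter as a block, and followed 1419209_at less closely, with r = 0.68. It had a peak in litter 2 in the transgenic sample only, and 3 of the 4 litters had the transgenic sample higher.

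Cxcl2, whose product is a close relative of the Cxcl1 chemokine, did not share the pattern. Its signals were 315, 270.1, 245 and 269.9 in transgenic samples of litters 1, 2, 3 and 4, against 393, 198, 186 and 326 in controls. Litter 1 was the highest in both genotypes, and the transgenic sample was above its littermate in litters 2 and 3 and below it in the other 2 litters. The group means were 275 ± 29.1 in transgenic and 275 ± 100.5 in control samples (SD, n = 4 each). The fitted difference of 0.05 log2 (SE 0.22, or 0.17 with litter as a block) changed sign when single arrays or whole litters were left out.

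Ccl2 and Ccl7, genes of chemokines that attract monocytes, were dim. Ccl2 had 117, 130.2, 67.0 and 15.2 in transgenic and 61.3, 33.5, 69.5 and 65.5 in control samples, and Ccl7 had 37.5, 74.3, 4.60 and 44.0 in transgenic and 26.1, 40.3, 20.9 and 33.2 in control samples. The largest ratio for Ccl2 was 3.89 in litter 2 and the smallest 0.232 in litter 4, so the littermates differed in both directions. Ccl7 was highest in litter 2 in both genotypes, at signals below the filter.

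Lif, the gene of leukaemia inhibitory factor, a cytokine that signals through the same receptor chain as interleukin-6, was dim on both of its probe sets. On 1421207_at it had 60.8, 47.2, 34.8 and 50.6 in transgenic and 56.8, 52.9, 37.7 and 37.3 in control samples, and the group means were 48.4 ± 10.7 and 46.2 ± 10.1 (SD, n = 4 each). On 1450160_at it had 12.1, 6.63, 4.24 and 4.59 in transgenic and 50.8, 76.3, 7.20 and 74.7 in control samples, lower in the transgenic sample of every litter. The probe sets followed each other weakly (r = 0.169 over 8 arrays), and the second was among the dimmest values of the members.

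**Figure D1:**
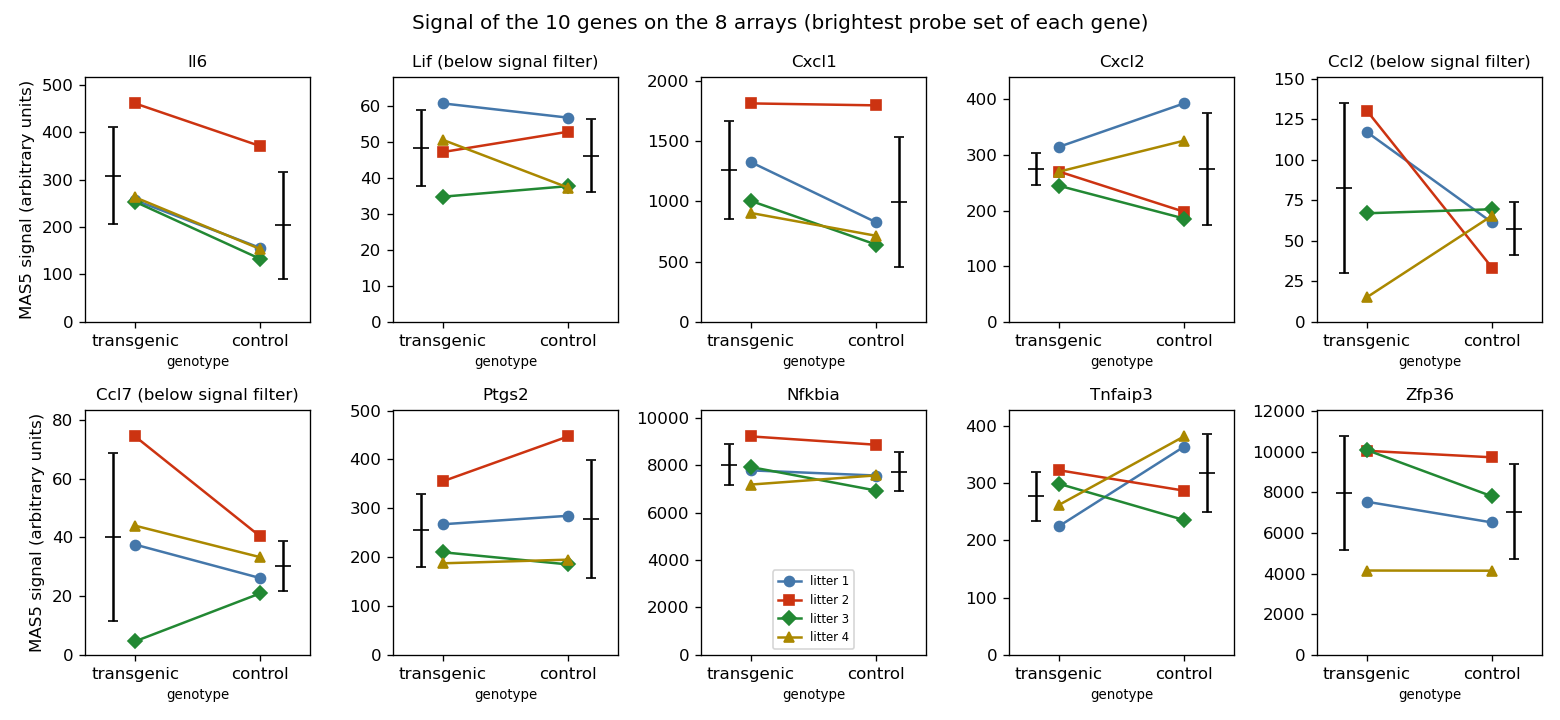
MAS5 signal in arbitrary units of the brightest probe set of each of the 10 genes, with transgenic samples on the left and control samples on the right of each panel. Lines join littermates, black bars give the mean and SD of 4 samples, and Il6, Cxcl1, Ptgs2 and Nfkbia have litter 2 as the highest sample of both genotypes (for Il6, 461 in the transgenic and 371 in the control sample).

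Ptgs2, the inducible cyclooxygenase that starts prostaglandin synthesis, varied with litter, and its fitted genotype differences were smaller than their SE. On 1417263_at its signals were 267, 356, 210.0 and 187 in transgenic samples of litters 1, 2, 3 and 4, against 285, 447, 185 and 195 in controls, a fitted difference of -0.07 log2 (SE 0.26). On 1417262_at they were 171, 336, 154 and 140.3 in transgenic and 159, 282, 171 and 127 in control samples, a difference of 0.08 log2 (SE 0.28). Both probe sets were highest in litter 2 in both genotypes, and the sign of the genotype difference was opposite between them.

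Nfkbia, the gene of the inhibitor itself, was measured by 5 probe sets. On the brightest, 1420088_at, it had 7779.6, 9212, 7919 and 7182 in transgenic samples of litters 1, 2, 3 and 4, against 7563, 8861, 6930 and 7568 in controls, a fitted difference of 0.05 log2 (SE 0.11). Its 95% interval without the litter block reached from -0.18 to 0.29, and with the block the SE was 0.07. The 5 differences lay between -0.01 and 0.13 log2. Litter 2 was the highest in both genotypes on 4 of the 5 probe sets, and on 1449731_s_at in the transgenic sample alone.

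Zfp36 was also bright, with 7533, 10041, 10076 and 4150 in transgenic samples of litters 1, 2, 3 and 4, against 6516, 9721, 7802 and 4141 in controls. Litters 2 and 3 were high and litter 4 low in both genotypes, a different order from that of Il6. The transgenic sample was the higher one in all 4 litters, by ratios of 1.16, 1.03, 1.29 and 1.00, and the fitted difference was 0.16 log2 (SE 0.28, or 0.07 with litter as a block). Without the control of litter 4 its sign turned, to -0.076 log2, in a fit without the litter block that kept the transgenic littermate. With a whole litter left out, the Zfp36 difference stayed between 0.086 and 0.21 log2.

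Tnfaip3 had 225, 323, 299 and 262 in transgenic samples of litters 1, 2, 3 and 4, against 364, 287, 236 and 382 in controls on 1433699_at, a fitted difference of -0.17 log2 (SE 0.18). Neither a litter nor a genotype stood apart in these values. Its second probe set, 1450829_at, was dim, with 75.5, 156, 42.0 and 52.3 in transgenic and 37.4, 18.2, 95.3 and 94.7 in control samples, and did not follow the first (r = -0.0037 over 8 arrays).

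**Figure D2:**
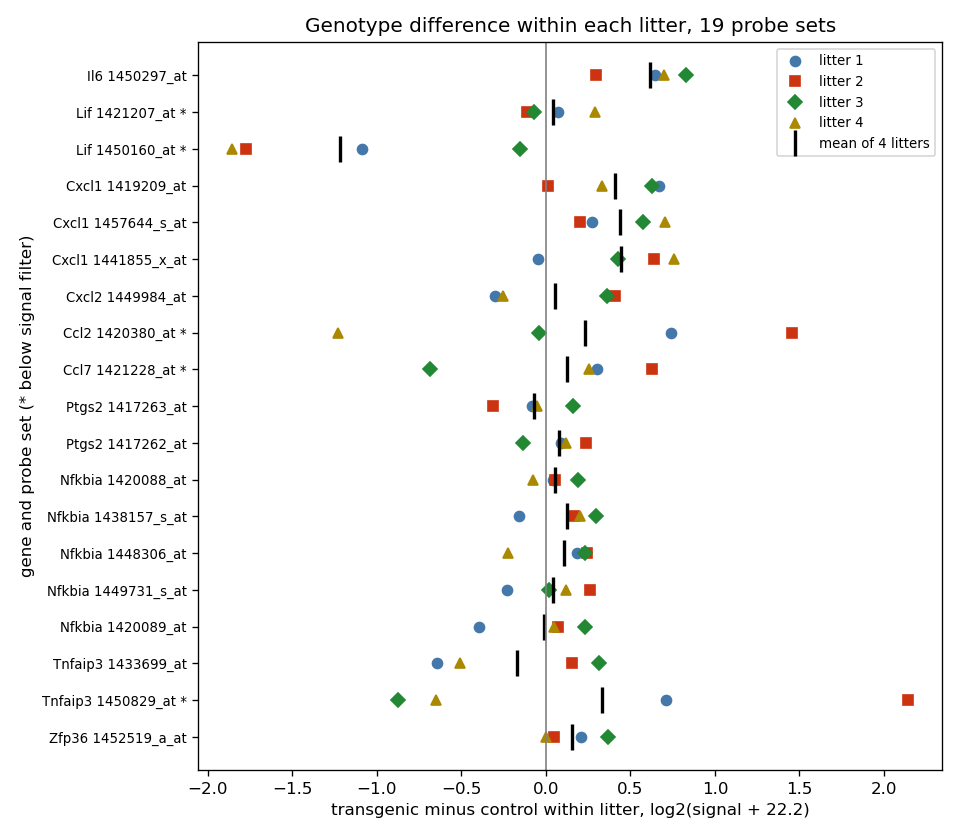
Transgenic minus control within each litter on the scale of log2(signal + 22.2), for the 19 probe sets, with 1 symbol per litter and a black mark at the mean of the 4 litters. Il6, Cxcl1 on 2 of its 3 probe sets, and Zfp36 lie at or right of 0 in all 4 litters, while the marks of the 5 Nfkbia probe sets lie between -0.01 and 0.13 and the dim Ccl2 and 1450829_at of Tnfaip3 (dim probe sets carry a star) spread widest.

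The comparison of genotypes asks which transcripts differ between chondrocytes labelled as carrying the Hoxc8 transgene and those of control littermates. Which values the 10 genes were chosen by is not recorded, but results of these arrays were known at the time, among them higher Il6 and Cxcl1 signals in transgenic samples and in litter 2. The counts below are therefore descriptions beside their background, and nothing about the members as a group is drawn from them. In limma's test across 22519 probe sets, with an adjusted p under 0.05 as the threshold, 0 of the 14 member probe sets were called, where 0% of all tested probe sets were. An unadjusted p under 0.05 was reached by 2 of the 14, the Il6 probe set and 1441855_x_at of Cxcl1, against 1.09% of all.

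With litter as a block, still 0 of the 14 were called (background 0%), and 4 had an unadjusted p under 0.05, against 3.34% of all tested. They were Il6 and the 3 probe sets of Cxcl1. The smallest adjusted p of a member was 0.9999 by limma without the block and 0.9998 with it. The fitted difference was above 0 for 11 of the 14, where 48.8% of all were, and 4 had the transgenic sample higher in all 4 litters, where 5.2% did. The 14 probe sets read 7 genes, Nfkbia most often, so they are not independent. By brightest probe set, the difference was above 0 for 3 of 3 tested cytokine and chemokine genes and 2 of 3 feedback genes, and below 0 for Ptgs2. Of all genes, 50.7% were above 0. The median difference was 0.09 log2 over the 14 probe sets and -0.0035 over all. No member had groups that did not overlap with transgenic samples higher, and 0.453% of all tested probe sets did.

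More calls were made between litters. A span from the highest to the lowest of 4 litters is a different measure from 1 difference of genotypes. The litter test had genotype in its model, while the main genotype test left litter in the spread. In limma's moderated F-test of the 4 litters with genotype in the model, 7 of the 14 member probe sets were called, against 9% of all tested. At an unadjusted p under 0.05 there were 9 of the 14, against 27.7% of all. The 7 called belonged to Il6, Cxcl1 (1419209_at and 1457644_s_at), Ptgs2 (both), Nfkbia (1448306_at) and Zfp36. The span between the highest and lowest litter was 2.11-fold for Il6, 2.22-fold and 2.99-fold for the called probe sets of Cxcl1, 1.97-fold and 2.12-fold for Ptgs2, 1.51-fold for Nfkbia and 2.38-fold for Zfp36. For Cxcl2 it was 1.59-fold and for Tnfaip3 1.18-fold, and neither was called. The median span was 0.63 log2 over the 14 and 0.40 over all tested probe sets.

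These litter calls depend on how the spread is modelled and on single samples. Without the intensity trend in the variance, 0 probe sets of the whole table were called, members included, though 4915 of all and 7 of the 14 members had an unadjusted p under 0.05. Leaving out 1 array brought the called members to between 2 and 7, with 2 without the control of litter 2, and 3 without the transgenic sample of litter 2 or 3 or the control of litter 3. With litter 2 left out altogether, 1 of the 14 was called, and 2.5% of all. The span of Il6 over the other 3 litters was then 0.12 log2, in place of 1.08, and that of Cxcl1 0.37, in place of 1.15.

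Litter 2 was the highest litter in both genotypes for 9 of the 14 member probe sets, where 14% of all tested probe sets had that pattern. The 9 were probe sets of Il6, Cxcl1, Ptgs2 and Nfkbia only, with several for 1 gene. Litter 1 had it for 1 member, the Cxcl2 probe set (4.78% of all), and litters 3 and 4 for 0 (10.2% and 14% of all). Measured from the mean of the 4 litters, litter 2 stood at 0.75 log2 for Il6, 0.77 for Cxcl1, 0.60 for Ptgs2, 0.20 for Nfkbia and 0.47 for Zfp36, and at -0.20 for Cxcl2 and 0.05 for Tnfaip3. The labels do not say how litters differed in handling, so litter and any step done litter by litter cannot be told apart.

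**Figure D3:**
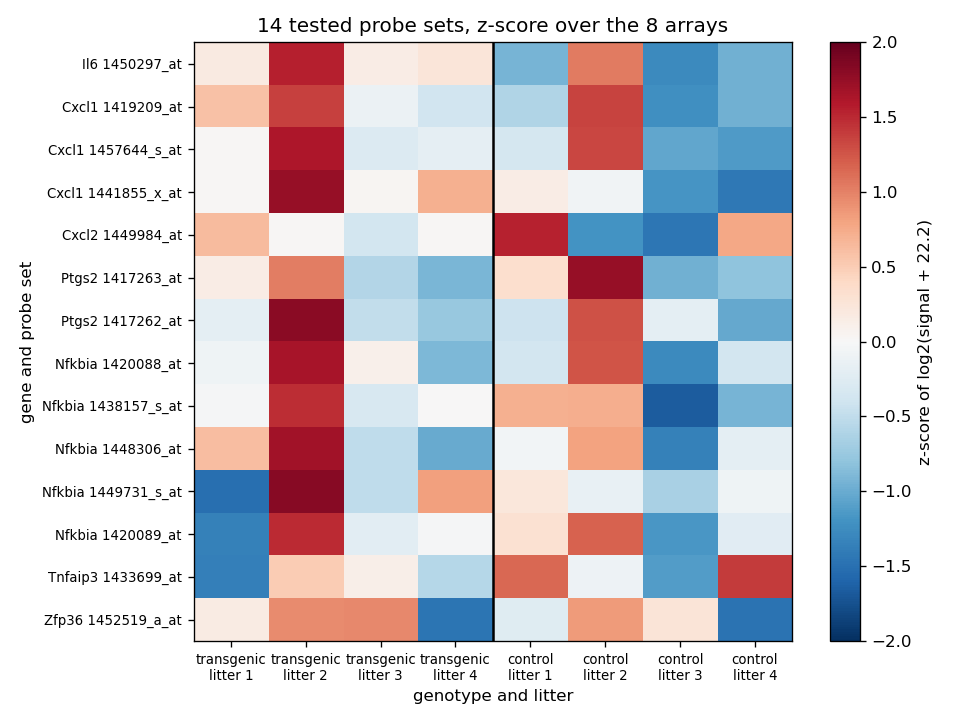
Each tested member probe set scaled to a z-score over the 8 arrays (colour, from blue at -2 to red at 2), with the 4 transgenic samples left of the black line and the 4 controls right of it. The litter 2 columns are red for the probe sets of Il6, Ptgs2 and most of Cxcl1 and Nfkbia in both genotypes, and pale or blue for Cxcl2 and Tnfaip3 in the control.

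The members were next set against each other over the 8 arrays. Il6 and Cxcl1 had the highest r of the 21 pairs, 0.939, and 0.842 over the 6 arrays without litter 2. Both were known to be high in transgenic samples and in litter 2 when the members were put together, so this value describes that shared pattern. The 6 pairs among Il6, Cxcl1, Ptgs2 and Nfkbia, a subset picked after the values were seen, had r between 0.686 and 0.939. Without litter 2 these 6 ran from 0.101 to 0.842, and the pair of Il6 and Ptgs2 was the lowest. Ptgs2 and Cxcl1 had r = 0.86 over all arrays and 0.547 without litter 2. Cxcl2 and Tnfaip3 followed each other (r = 0.525) and had r between -0.451 and 0.263 with the other 5 genes. Over all 21 pairs of the 7 tested genes 13 were positive, with a median of 0.498. These arrays share litters, and no test is attached to the correlations.

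**Figure D4:**
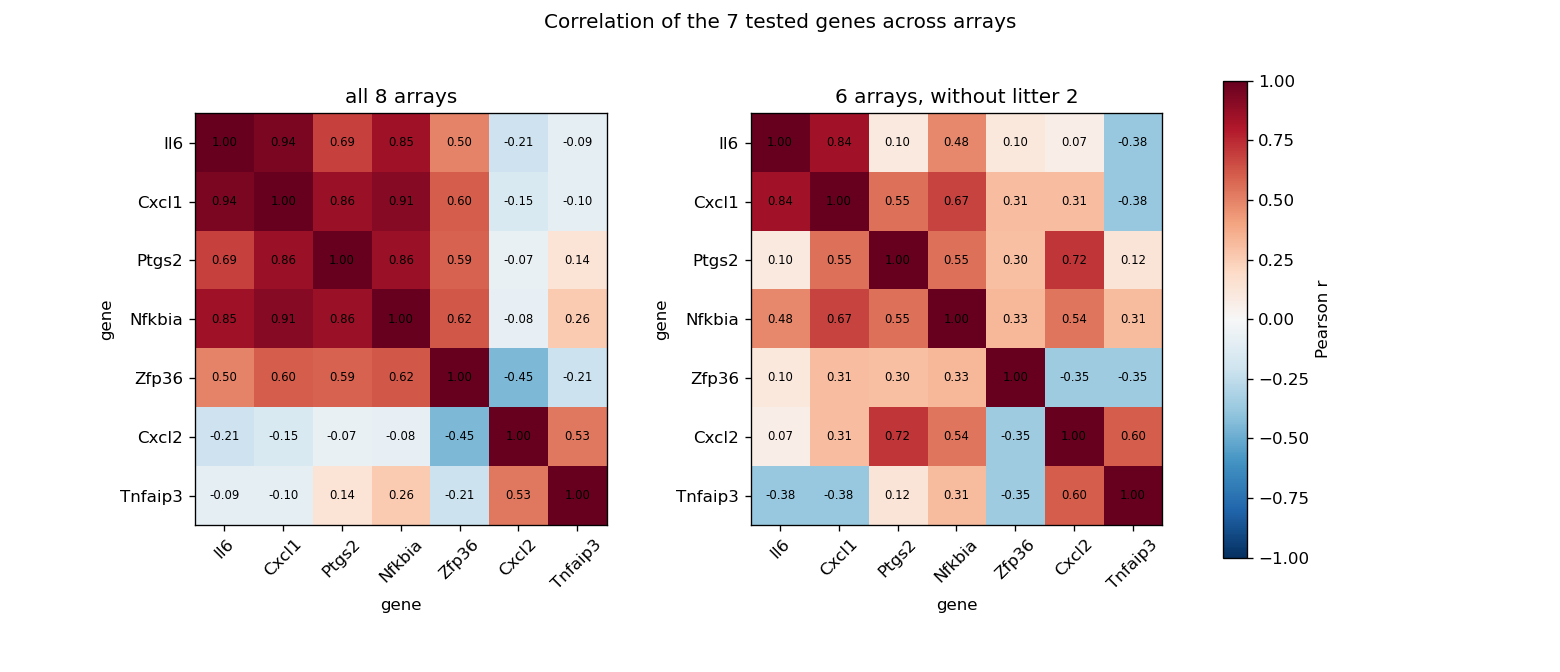
Pearson correlation of log2(signal + 22.2) between the 7 tested member genes over all 8 arrays (left) and over the 6 arrays without litter 2 (right), from blue at -1 to red at 1. Il6 and Cxcl1 keep r = 0.842 without litter 2, while Il6 and Ptgs2 drop to 0.101.

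Of 10982 other genes, the 10 whose signals followed the mean z-score of the 7 genes most closely over the 8 arrays were Grk5 (r = 0.968), Sqstm1, Smpd2, Pip4p1, Id4, Tbc1d10a, Insig1, Hnrnpdl, Ttc19 and Rdh11 (r = 0.93). Sqstm1 encodes an autophagy receptor, Grk5 a kinase of G-protein-coupled receptors and Id4 an inhibitor of basic helix-loop-helix factors. Sqstm1 had 5004, 5305, 4874 and 4330.2 in transgenic samples of litters 1, 2, 3 and 4, against 4717, 5406, 4098 and 4452 in controls.

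Other genes of the pathway were read from lists that were likewise written with earlier results known, and a gene was represented by its brightest tested probe set. By genotype 0 genes of any list were called, as in the whole table (0 of 10989 genes, 0%). An unadjusted p under 0.05, which 0.91% of all genes had, was reached by 1 of 10 subunit and kinase genes (Tab1, an adaptor of the kinase TAK1, at -0.34 log2) and by 0 of 14 upstream ligand and receptor genes. It was also reached by 0 of 10 other feedback genes, 0 of 9 other target genes and 1 of 10 genes of cytokine receptors and STAT3 signalling. That gene was Il6ra, the receptor that binds interleukin-6. It had 143, 37.5, 76.4 and 74.9 in transgenic samples of litters 1, 2, 3 and 4, against 200.2, 108, 125 and 138 in controls, a fitted difference of -0.71 log2 (SE 0.31). The transgenic sample was lower in each litter, and the transgenic mean of 82.9 lay under the signal filter. With litter as a block, 2 subunit and kinase genes, 1 other feedback gene (Nfkbiz) and 1 receptor gene (Il6ra) had an unadjusted p under 0.05, against 3.08% of all genes. So did 2 immediate early genes (Atf3 and Klf4), 3 chondrocyte, 3 skeletal muscle, 2 neutrophil and 1 fibroblast marker, and with an adjusted p 0 genes of any list were called. The fitted difference was above 0 for 8 of 10 subunit and kinase genes, 6 of 14 ligand and receptor genes, 4 of 10 feedback genes and 5 of 9 other target genes, against 50.7% of all genes. It was above 0 for 4 of 10 receptor and STAT3 genes, 6 of 7 prostaglandin genes and 3 of 8 genes of AU-rich message decay.

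Between litters, 0 of the 10 genes of subunits and kinases and 0 of the 14 upstream ligands and receptors were called, where 9.91% of all genes were. With lists this short that is not read as a difference from the background. At an unadjusted p under 0.05 there were 2 of the 10 and 4 of the 14. The brightest of the subunits and kinases were Tab2, Rela and Map3k7, and the brightest upstream genes Irak1, Tnfrsf1a and Myd88. Rela, the subunit that carries the main activation domain, had 1314, 1259.7, 1142 and 979 in transgenic samples of litters 1, 2, 3 and 4, against 1116, 1343, 1022 and 935 in controls. Rel, a further subunit, singled out after its values were seen, had 244, 265, 148 and 175 in transgenic and 196, 297, 71.3 and 188 in control samples, highest in litter 2 in both genotypes. Its span between litters was 1.27 log2, and limma's adjusted p of 0.0537 missed the threshold. Il1b, the gene of interleukin-1 beta, had a span of 1.26 log2 and was highest in litter 4 in both genotypes. In all, 3 of the 10 subunit and kinase genes and 2 of the 14 upstream genes were highest in litter 2 in both genotypes, where 11.7% of all genes were. Tnf, Il1a, Ccl3, Ccl20, Csf2 and Nos2, further genes of the pathway, had mean signals under 24 on every probe set with 1 symbol. Nfkb1 and Chuk could not be read, for want of a probe set annotated to them alone.

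Of 10 other feedback genes 1 was called between litters and of 9 other target genes 1, shares close to the 9.91% of all genes. The feedback gene was Nfkbiz, which encodes a nuclear inhibitor-like cofactor, with 2050.1, 3084, 2455 and 1866 in transgenic samples of litters 1, 2, 3 and 4, against 2001, 2204, 1983 and 1464 in controls. The target gene was Ier3, an early-response gene. Tax1bp1 and Birc2, and Sod2 and Cxcl12, the next brightest of these lists, were not called. Of 10 genes of receptors and STAT3 signalling 2 were called, Socs3, the feedback inhibitor of interleukin-6 signalling, and Stat3, its transcription factor, while Il6st, the shared receptor chain, was not. Stat3 had 2778, 4541, 2949.6 and 2669 in transgenic and 3384, 4543, 3057 and 2273 in control samples, highest in litter 2 in both genotypes. Socs3 and Ier3 had their highest control sample in litter 2 (9607 and 4016) but their highest transgenic sample in litter 3 (9347 and 3815). Of 7 prostaglandin genes 2 were called, Hpgd, highest in litter 4, and Ptger4, highest in litter 3, which degrade and receive prostaglandin E2. The bright Ptgis and Pla2g4a were not. Of 8 genes of AU-rich message decay 3 were called, Hnrnpd, Zfp36l1 and Zfp36l2, and Cnot7, the brightest, was not. Litter 2 was highest in both genotypes for 2 of the 10 feedback, 1 of the 9 target and 1 of the 10 receptor and STAT3 genes. It was so for 0 of the 7 prostaglandin and 2 of the 8 message decay genes, where 11.7% of all genes had that pattern.

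Immediate early genes, which many cell stimuli switch on within minutes, also differed between litters. Of 19 tested, 16 were called, against 9.91% of all genes, and 12 were highest in litter 2 in both genotypes, where 11.7% of all were. The brightest, Fos, Jun and Dusp1, were among those called. The mean signal of the list was 8205, 10611, 8805 and 6324 in transgenic samples of litters 1, 2, 3 and 4, against 8375, 10866, 8001 and 5999 in controls. Atf3, which encodes a stress-induced factor and was picked after its values were seen, had 4569, 8368, 4127 and 2982 in transgenic and 4047, 7713, 3082 and 2574 in control samples. Of 10 heat shock genes 5 were called, against the same 9.91%, and 5 were highest in litter 2 in both genotypes. Among the brightest, Hspa1b and Hsp90aa1 were called and Hspa8 was not. The part of both lists in the member values was not tested.

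**Figure D5:**
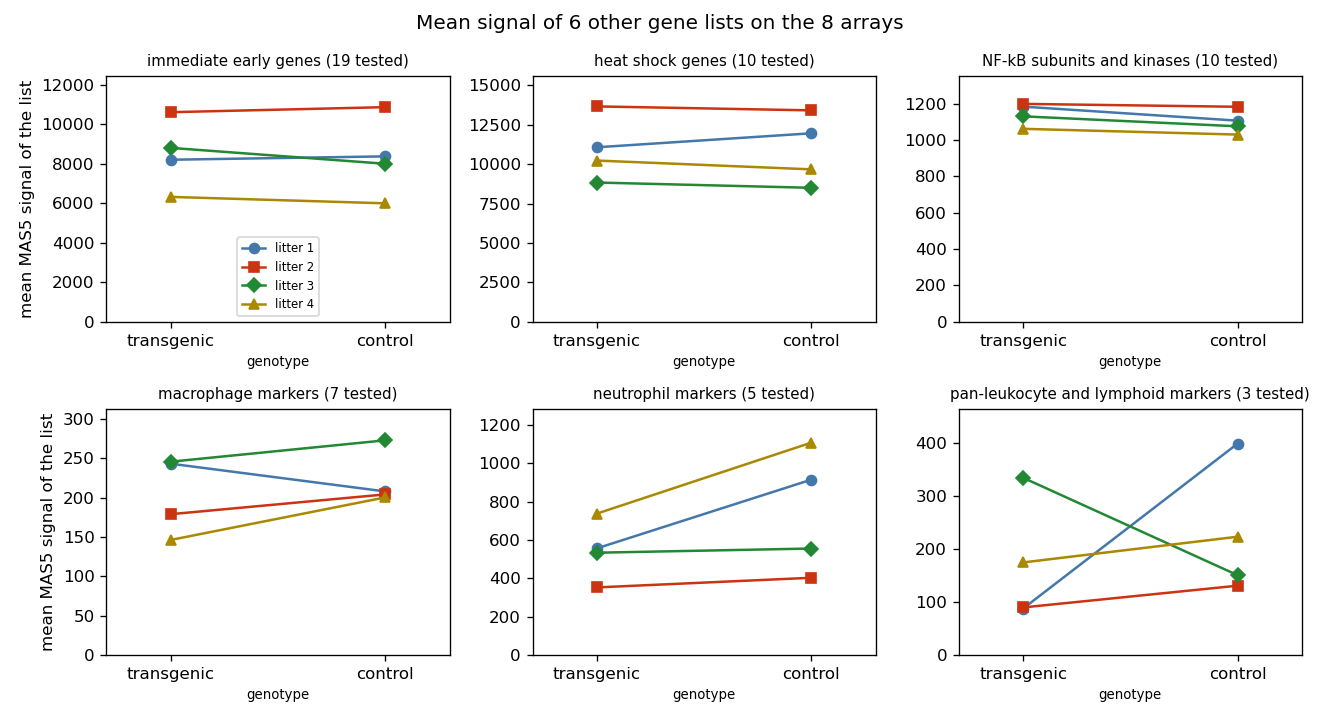
Mean MAS5 signal of the tested genes of 6 other lists on each array, transgenic left and control right, with lines joining littermates. The means of the immediate early and heat shock lists are highest in litter 2 in both genotypes. Of their single genes, 12 of 19 and 5 of 10 have that pattern. The neutrophil mean, set mostly by S100a9 and S100a8, is lowest there (352 in the transgenic and 402 in the control sample).

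Markers of cell types were read on the same arrays by genotype and litter. In a mixture of cells, fewer cells of a type and less RNA per cell cannot be told apart. Of 13 macrophage markers 7 were tested, and their mean signal ranged from 146 to 246 in transgenic and from 200.4 to 273 in control samples (exact permutation p = 0.6). The brightest were Csf1r, Lyz2 and Mrc1. In litter 2 the mean was 179 in the transgenic and 204 in the control sample. Of 12 neutrophil markers 5 were tested, with 352 to 737 in transgenic and 402 to 1108 in control samples (exact permutation p = 0.286, which leaves out the litters), and the lowest sample of each genotype was that of litter 2. Their mean was lower in the transgenic sample of all 4 litters, at 556, 352, 533 and 737 against 915, 402, 555 and 1108 in controls. The fitted difference was below 0 for 5 of 5 genes. S100a9 and S100a8, with mean signals of 1368 and 1326 against 243 for Ngp, the next, set most of the list mean. Only S100a9 was lower in the transgenic sample of every litter. S100a9 and S100a8 were lowest in litter 2 in both genotypes. Mmp9 had its highest control sample there (259), and Ngp and Lcn2 were lowest there in controls only. S100a9, the brightest, differed by -0.42 log2 and S100a8, the next, by -0.37, with an unadjusted p by limma with litter as a block of 0.0017 and 0.0158 and an adjusted p of 0.9998 for both. The 3 tested pan-leukocyte markers, Ptprc, Coro1a and Laptm5, ranged from 87.5 to 335 in transgenic and from 131 to 399 in control samples (exact permutation p = 0.514), and stood at 89.6 and 131 in the transgenic and control samples of litter 2. The 2 tested mast cell markers, Cma1 and Cpa3, stood at 110 and 77.3 in the transgenic and control samples of litter 2, the lowest of each genotype. Chondrocyte markers, in contrast, were highest in litter 2 in both genotypes, with a list mean of 27433, 29754, 26614 and 25389 in transgenic samples of litters 1, 2, 3 and 4, against 28650.2, 32659, 25921 and 24746 in controls. Of the 14, 8 were highest there in both genotypes, against 11.7% of all genes. The 8 endothelial markers, led by Esam, Egfl7 and Cdh5, had their highest transgenic sample in litter 2 (287) and their highest control sample in litter 3 (306). The 11 skeletal muscle markers were led by Acta1, Tnnt3 and Mylpf. Their list mean was lowest in litter 2, at 2810 in the transgenic and 2928 in the control sample. Acta1 and Mylpf were lowest there in both genotypes. Tnnt3, at 7792 in the transgenic and 7361 in the control sample, and Casq2 were lowest in litter 3, and Myog had its highest transgenic sample in litter 2 (1103). The 12 fibroblast markers, led by Col3a1, Col1a2 and Postn, stood at 14937 and 15575 in the transgenic and control samples of litter 2, within the range of the other litters. As a mean of log2 values, however, the fibroblast list was lowest in litter 2, at -0.19 log2 from the mean of the 4 litters. The 4 erythroid markers (Alas2, Rhd, Slc4a1 and 1 more) stood at 895 and 1089.9 in the transgenic and control samples of litter 2, also within the range of the other litters. The part of these cell types in the member values was not tested. No marker was at 0, and those under the signal filter on average included Cd68 (69.3), Cd163 (16.5), Mpo (43.9) and Cd3e (25.9).

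The ratio of 5-prime to 3-prime signal of Gapdh lay between 1.26 and 1.36 in litters 1, 2 and 3 and was 1.14 in the transgenic and 1.17 in the control sample of litter 4. The beta-actin ratio was likewise lowest in litter 4 (0.475 in the transgenic and 0.512 in the control sample). Litter 4 was the one with the lowest Zfp36 and immediate early signals, and the part of RNA quality in them was not tested. Between genotypes the 2 ratios gave exact permutation p values of 0.971 and 0.886.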

How the data were processed

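Expression was measured on 8 Affymetrix arrays, 4 of Hoxc8 transgenic and 4 of control samples, paired by litter per the labels. Each array has 1 deposited intensity value per probe set, not in logs. MAS5 is the tool that the submitters' processing notes give, with no version, and the mean after trimming 2% at each end was 500.0 on every array, which is what scaling to 1 target gives, though no label states that step. No detection calls were used.

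Signals were transformed as log2(signal + 22.2), the 20th percentile of all values, which understates fold changes of dim genes. Tests covered the 22519 probe sets whose signal averaged 110 or more, without the 64 Affymetrix control probe sets. Names come from the platform annotation of 2016. Of the probe sets, 34945 had 1 symbol, 932 several and 9160 none. In limma (3.58.1, under R 4.3.3), the genotype test was two-sided and had no covariates (lmFit, then eBayes with a variance trend over intensity), and a moderated F over the litter terms, beside a genotype term, was the litter test, both with Benjamini-Hochberg adjustment over all probe sets and a threshold of 0.05. Marker lists and single ratios were compared by exact permutation over 70 assignments. The steps were tested on simulated data.

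The members, lists and tests were chosen with earlier results of these data known. All member probe sets were named, and of every other list counts and the 3 brightest tested genes. Genes named beyond these, such as some called genes, Rel, Il1b, Il6ra and Tab1, were picked after their values were seen. The labels tie each replicate number to a litter, so the numbers pair the samples. Deviations of littermates from their group means correlated at 0.0251, 0.434, 0.376 and 0.379 in litters 1, 2, 3 and 4. P-values measure the spread between these samples. The fits were repeated with a litter block, other offsets and filters, quantile normalization, median centring, other variance models, array weights, left-out arrays or litters, and other probe sets. Promoter windows are from RefSeq (GRCm38.p6). Array annotation names no genome build, so no other coordinates are given.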

Additional observations from a re-analysis of the deposited data

Results flagged for a closer look

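The gap between an extreme sample and its neighbour, over the whole range of the 4 samples of a genotype, was computed for 38 groups of member values. In 6 of them it passed Dixon's 95% value, which chance passes in about 2 of 38. Of the 6, 4 are Il6 and Cxcl1, whose high signals in litter 2 were known when the members were put together, so the count is a description and is not read against chance. All 6 were the highest sample of their group and came from litter 2. Il6 had 460.7 in the transgenic sample (next 262.7) and 370.7 in the control sample (next 156). Cxcl1 had 1747 in the transgenic sample on 1457644_s_at (next 760.1) and 1796 in the control sample on 1419209_at (next 826.1). Ptgs2 on 1417262_at had 336.2 in the transgenic sample (next 170.8). Nfkbia on 1438157_s_at had 6226 in the transgenic sample (next 4978). These probe sets share arrays, so the 6 are not independent of each other.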

How the results depend on the processing

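By limma, 0 probe sets and 0 members were called between genotypes in all 22 other fits. The litter as a replicate block changed no call and left the differences at 0.62 log2 for Il6 and 0.41 for Cxcl1. Over 162 alternative values of the 7 tested genes 0 were called, and Il6 stayed between 0.42 and 0.92 log2 and Cxcl1 between 0.22 and 0.73. The ends of both ranges came from fits without the litter block that left out 1 array of litter 2 and kept its littermate. With a whole litter left out, Il6 lay between 0.55 and 0.72 log2 and Cxcl1 between 0.32 and 0.54. Signs turned in 17 of the 162 values. With array weights Cxcl2 stood at -0.12. When arrays or litters were left out, Cxcl2 lay between -0.10 and 0.23, Ptgs2 between -0.23 and 0.17, Nfkbia between -0.015 and 0.12, and Zfp36 between -0.076 and 0.44. With whole litters left out, Nfkbia (0.0071 to 0.096) and Zfp36 (0.086 to 0.21) kept their sign, and Cxcl2 and Ptgs2 did not. As the mean of its probe sets Ptgs2 stood at 0.0033 and Tnfaip3 at 0.082. On 1417262_at Ptgs2 stood at 0.078, on 1420089_at Nfkbia at -0.010, and on 1450829_at Tnfaip3 at 0.33. Summed skeletal muscle markers changed sign when log2 values were averaged (0.051 log2).

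The litter calls moved most. Over all probe sets they numbered 2027, but 995 without a filter and 0 without the intensity trend, and between 546 and 3047 when arrays or litters were left out. Member calls were 7, but 3 of 19 without a filter, 4 of 8 with the stricter filter, 0 without the trend, and 1 to 8 when arrays or litters were left out. Genotype left out of the model gave 6. Some of these fits also differed in their number of samples or probe sets, and the cause of the moves was not tested. Signal over background limits Lif, Ccl2, Ccl7 and 1450829_at of Tnfaip3, which were too dim for the test.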
